A study of Mus musculus with 5 samples.

Results

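The surface and secreted genes Ly6a, Ly6c1, Cd34, Thy1, Dpp4, Pi16 and Cd55, which are used to mark mesenchymal progenitors, were followed in Prx1-derived cells of mouse skeletal muscle. They were chosen by name, with no measured value in the rule, although with earlier results of these data known. They make up 7 of the 31055 genes counted. All 7 passed the filter on low levels (a mean of at least 5 UMIs per 1000000 over the libraries), as did 9388 genes in all. Dpp4 passed only through its level in the d0 library, so that its ratios and its place in every count are a description only.

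Single-cell RNA sequencing (scRNAseq) was performed on GFP+ cells sorted from the muscles around the tibia of Prx1Cre;mTmG mice on a C57Bl/6 background, at d0 (uninjured), after non-stabilized tibial fracture and after polytrauma, in which the muscles were crushed before the bone was cut. The mice were adults, and no other allele separated the groups. The operated mice also received anesthetics and analgesics, and no sham operation is described for the d0 mice. Prx1Cre acts in the embryonic limb mesenchyme and mTmG switches from Tomato to GFP wherever Cre has acted, so GFP marks every descendant of those cells and not one cell type. Each of the 5 libraries was pooled from 2 mice and is the only library of its condition, so conditions could not be tested against each other and every interval covers counting error only.

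The libraries are called here by their titles. SC3 is d0, SC4 is d3 post-fracture and SC10 is d5 post-polytrauma. The deposited labels give SC5 as d5 post-fracture and SC9 as d3 post-polytrauma, whereas the cell numbers listed by the study put these 2 libraries the other way round. SC9 holds 2001 barcodes and SC5 holds 6915. Throughout, SC9 is read as d5 post-fracture and SC5 as d3 post-polytrauma, and every ratio is given by library, so that it can be read under either naming without a change of value.

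Mesenchymal progenitors of muscle, also called fibro-adipogenic progenitors (FAP/MP), lie in the interstitium between the fibres and support regeneration of the tissue. Fibroblasts of many organs include an adventitial population that lies along vessels and fascia and carries Pi16 and Dpp4, and interstitial populations that lack them. Ly6a encodes Sca-1, the antigen most often used to sort FAP/MP from mouse muscle, and Ly6c1 encodes a related protein held in the membrane by a lipid anchor. Cd34 encodes a sialomucin of progenitors and endothelium, Thy1 the anchored glycoprotein CD90, Dpp4 the serine protease CD26, Pi16 a peptidase inhibitor family protein, and Cd55 an anchored protein that limits complement.

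The barcodes with 350 to 8000 detected genes, under 20% of UMIs on mitochondrial genes and at least 1000 UMIs were retained, which left 1468 to 11941 cells per library and 29831 of 34439 barcodes. Median depth was lowest in SC3 (3640 UMIs per retained cell) and highest in SC9 (34949), with 15688 to 17963 in the other libraries. SC3, SC4 and SC5 held 405 to 525 barcodes in common by pair, SC9 and SC10 held 944 in common, and 3 or fewer barcodes were common to a library of the first set and one of the second. The ratios of SC4 and SC5 to SC3, of SC5 to SC4 and of SC10 to SC9 therefore stay within such a set, and the others cross between them. Across the sets the median log2 ratio of all tested genes was 0.23 to 0.53, and within them it was -0.29 to -0.01.

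The promoters of the 5 genes whose level differed most between libraries are printed as the sequence in front of genes with the largest falls. Each runs over the 250 bases before the transcription start given by RefSeq (GRCm38.p6), 5′ to 3′ on the strand of the gene, and no promoter entry was used for Ly6a and Thy1. The stretch of Pi16 lies inside that gene as annotated by GENCODE (chr17:29317680-29330593), which sets its start further upstream. Of 2 entries for Ly6c1 the first is printed, and the second held neither TATAAA nor CCAAT. Capitals mark the motif TATAAA, the motif CCAAT or the motif GGGCGG on either strand, and no 2 of them overlap.
Pi16 (chr17:29318632-29318881, plus strand): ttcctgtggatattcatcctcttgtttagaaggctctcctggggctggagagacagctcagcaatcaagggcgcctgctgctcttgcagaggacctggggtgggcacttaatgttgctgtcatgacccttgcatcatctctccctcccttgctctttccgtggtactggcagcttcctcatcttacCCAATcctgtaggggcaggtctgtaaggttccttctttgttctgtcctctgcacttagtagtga
Dpp4 (chr2:62412232-62412481, minus strand): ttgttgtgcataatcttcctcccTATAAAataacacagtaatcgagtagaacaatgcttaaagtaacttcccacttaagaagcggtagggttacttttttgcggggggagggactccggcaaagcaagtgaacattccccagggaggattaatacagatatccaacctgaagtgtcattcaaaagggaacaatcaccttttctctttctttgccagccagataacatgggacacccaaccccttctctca
Cd55 (chr1:130462745-130462994, minus strand): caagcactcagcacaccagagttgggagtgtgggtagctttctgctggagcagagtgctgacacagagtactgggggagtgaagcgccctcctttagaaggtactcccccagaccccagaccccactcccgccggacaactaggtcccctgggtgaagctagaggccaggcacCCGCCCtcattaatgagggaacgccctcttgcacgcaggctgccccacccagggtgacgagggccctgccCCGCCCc
Cd34 (chr1:194938571-194938820, plus strand): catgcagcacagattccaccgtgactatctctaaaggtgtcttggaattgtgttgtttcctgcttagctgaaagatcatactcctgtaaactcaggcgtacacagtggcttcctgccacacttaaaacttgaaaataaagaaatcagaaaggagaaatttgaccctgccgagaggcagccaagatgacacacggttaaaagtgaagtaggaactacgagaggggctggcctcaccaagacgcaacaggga
Ly6c1 (chr15:75048838-75049087, minus strand): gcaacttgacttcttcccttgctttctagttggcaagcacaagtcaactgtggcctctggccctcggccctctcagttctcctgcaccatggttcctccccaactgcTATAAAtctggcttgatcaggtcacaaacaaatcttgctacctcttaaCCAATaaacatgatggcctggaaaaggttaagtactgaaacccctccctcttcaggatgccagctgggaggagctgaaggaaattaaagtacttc
The motif TATAAA was found before Dpp4 and Ly6c1, against 12.4% of all 32851 promoters of this length. CCAAT was found before Pi16 and Ly6c1 (33.8% of all promoters) and GGGCGG at 2 places before Cd55 (32.7%). CANNTG was found before Ly6c1 and Dpp4 (66.2%), and TGANTCA in none of the 5 (6.75%), nor was GGGANNTCC (3.59%), so no motif searched was shared by all of them.

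The 3 genes tied to adventitial fibroblasts had the widest range of levels. Pi16 stood at 1156 UMIs per 1000000 (CPM) in SC3, 55.3 in SC4, 27.8 in SC5, 119 in SC9 and 11.2 in SC10. Its d0 level was 9.68-fold higher than in SC9 and 103-fold higher than in SC10 (95% interval, 98.8 to 108). No pair of libraries had overlapping intervals for it.
Dpp4 was at 33.3 CPM in SC3, 0.710 in SC4, 0.920 in SC5, 12.1 in SC9 and 0.405 in SC10. SC9 was the only injured library above 1 CPM, 2.74-fold below SC3 (2.45 to 3.08), while SC10 was 82.2-fold below it (65.1 to 105). The levels of SC4 and SC5 did not differ beyond counting error.
Cd55 was at 141 CPM in SC3, 5.04 in SC4, 5.15 in SC5, 31.7 in SC9 and 3.27 in SC10. It followed the order of Dpp4, with SC4 and SC5 again overlapping and SC9 4.44-fold below SC3 (4.17 to 4.73).

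Cd34 was at 689 CPM in SC3, 47.3 in SC4, 54.7 in SC5, 99.8 in SC9 and 42.6 in SC10. It was 6.90-fold (SC9) to 16.2-fold (SC10) lower after injury, and the 4 injured libraries lay within a narrower range than for Pi16, Dpp4 or Cd55.

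The 2 neighbours on chromosome 15 (Ly6a at chr15:74994877-74998031 and Ly6c1 at chr15:75044018-75048830, both minus strand, GRCm38) differed in the extent of their change. Ly6a was at 979 CPM in SC3, 427 in SC4, 753 in SC5, 545 in SC9 and 331 in SC10, a spread of 2.96-fold from highest to lowest. Ly6c1 was at 601, 96.2, 172, 170 and 41.6 CPM in the same order, a spread of 14.5-fold, with SC5 and SC9 overlapping. Of the 98-base stretches in the last 500 bases of the Ly6c1 transcripts, 11.5% also occur in transcripts of Ly6a or Ly6c2, so that reads from these stretches cannot be assigned to 1 gene. Ly6c2 itself stayed at or below 1.67 CPM. No such stretch was found for the other 6 members.

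Thy1 had its own order. It was at 274 CPM in SC3, 152 in SC4, 217 in SC5, 78.6 in SC9 and 147 in SC10, a spread of 3.49-fold. SC9, where Dpp4, Pi16, Cd55 and Cd34 were the highest of the injured libraries, was the lowest for Thy1.

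**Figure D1:**
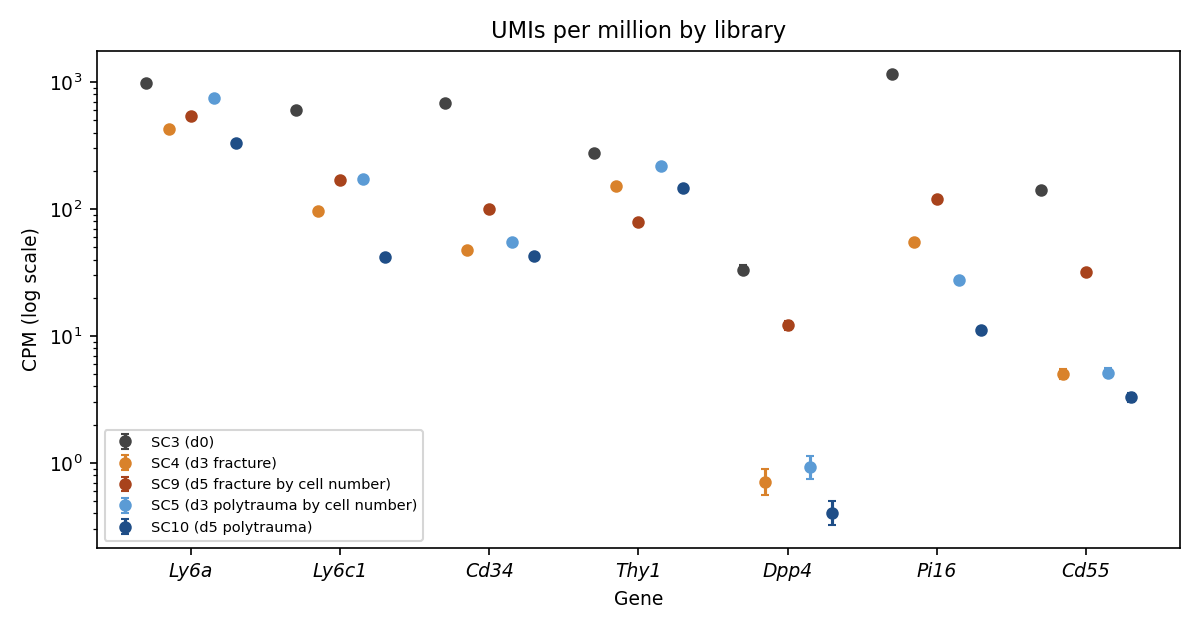
Level of each member as UMIs per 1000000 (log axis) in the 5 libraries, with points for the library value and bars for exact Poisson 95% intervals, many of which are smaller than the point. The d0 library SC3 is the highest for each gene, and the distance to the injured libraries widens from Ly6a and Thy1 to Dpp4, Pi16 and Cd55.

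Against d0, each of the 7 members was lower in each of the 4 injured libraries, except that Thy1 in SC5 came to a log2 ratio of 0.01 when mitochondrial and ribosomal protein genes were left out of the totals. In SC4, 6 were at least 2-fold lower (all but Thy1), as were 25.1% of all tested genes, and 0 were at least 2-fold higher, against 12.5%. The members' median log2 ratio was -3.86 against -0.27 for all tested genes. In SC5, 5 were (all but Ly6a and Thy1), against 24.9% of all genes, with medians of -3.66 and -0.29.
In SC9, 6 of 7 members were past 2-fold (all but Ly6a), against 10.6%, with medians of -1.82 and 0.23. In SC10, 6 were (all but Thy1), against 14.6%, with medians of -4.01 and 0.23. No member was 2-fold higher than at d0, where 11.7% to 21.6% of all genes were. Leaving out Dpp4, which passed the filter only through SC3, the members past 2-fold lower were 5, 4, 5 and 5 of 6. These 4 ratios share SC3 and are not independent of each other.

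The position of each ratio among all tested genes separated the members. Pi16 lay at percentile 1.37 in SC4, 0.73 in SC5, 1.36 in SC9 and 0.43 in SC10, among the strongest falls of the whole transcriptome. Ly6a lay at percentile 20.2, 46.5, 12.9 and 8.67, and Thy1 at 29.8, 48.2, 4.52 and 16.1, so in SC5 neither stood apart from the middle of all genes.

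Between injured libraries the members moved in both directions. SC5 and SC4 (polytrauma and fracture at d3) differed by less than 2-fold for each member, where 1.84% of all genes were past 2-fold lower and 1.65% higher. Ly6a and Ly6c1 were 1.76-fold and 1.78-fold higher in SC5 (1.74 to 1.78 and 1.74 to 1.83), while Pi16 was 1.99-fold lower (1.91 to 2.09). Among all tested genes Ly6a and Ly6c1 both lay at percentile 97.5 and Pi16 at 1.85. Thy1, Dpp4, Cd34 and Cd55 lay at percentiles 93.5, 89.3, 79.6 and 59.4.
SC10 against SC9 (polytrauma and fracture at d5) gave 5 members past 2-fold lower, against 6.99% of all genes, and 0 higher, against 1.41%. Dpp4 was 30.0-fold lower (23.8 to 38.2), Pi16 10.7-fold, Cd55 9.67-fold, Ly6c1 4.08-fold and Cd34 2.34-fold. Ly6a was 1.65-fold lower and Thy1 1.87-fold higher (1.81 to 1.93).

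From d3 to d5 after fracture (SC9 against SC4), 4 members were past 2-fold higher, against 32.9% of all genes, and 0 lower, against 4.39%. Dpp4 was 17.1-fold higher (13.4 to 22.2), Cd55 6.28-fold, Pi16 2.16-fold and Cd34 2.11-fold, and Thy1 was 1.94-fold lower. Of the members other than Dpp4, Cd55 lay above 95% of all genes (percentile 96.9), and Ly6a, Ly6c1, Cd34 and Pi16 lay at percentiles 43.2 to 70.9. From d3 to d5 after polytrauma (SC10 against SC5), 4 members were past 2-fold lower (Ly6c1, Pi16, Ly6a and Dpp4), against 3.45% of all genes, and 0 higher, against 25.2%. Both ratios cross between the 2 sets of barcodes, and what part that has in them was not tested. After fracture, 2 members in place of 4 were past 2-fold higher, and Thy1 was past 2-fold lower, with median-of-ratios scaling and with totals without mitochondrial and ribosomal protein genes. With 2000 UMIs from each cell, the log2 ratio of Pi16 was 0.46 in place of 1.11, no longer past 2-fold, and 3 members were.

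**Figure D2:**
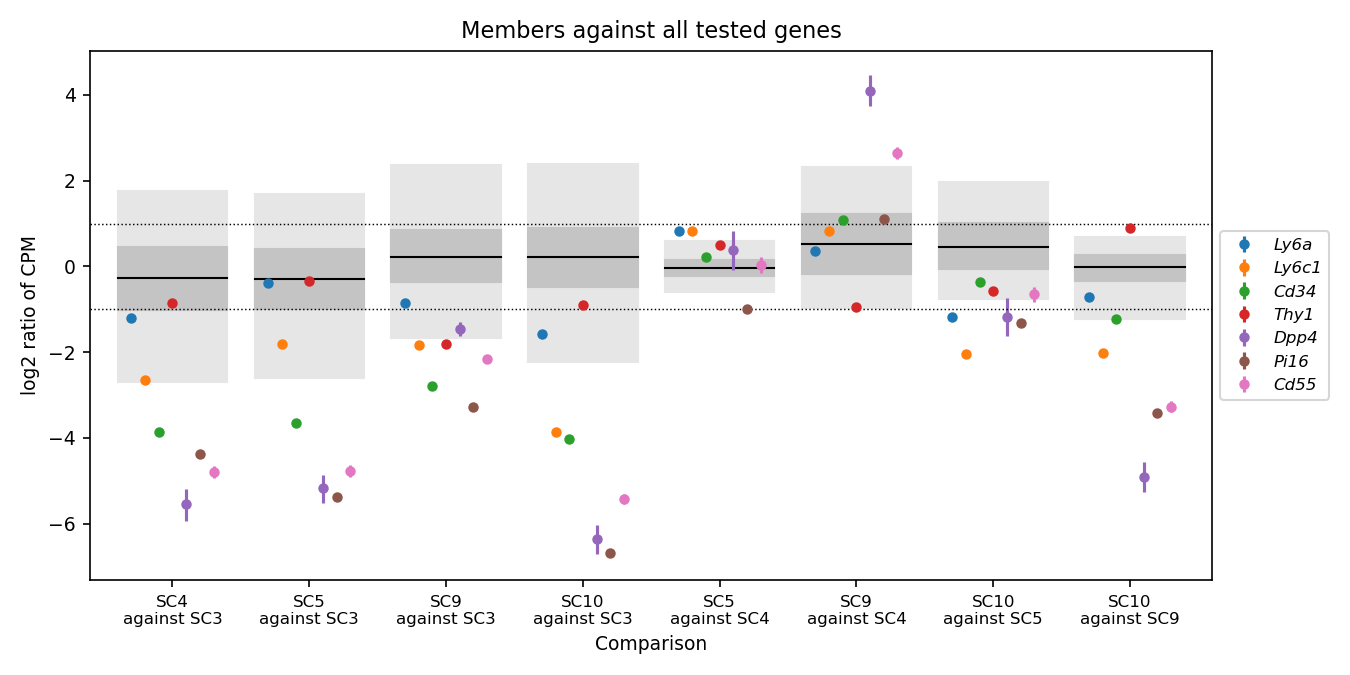
Log2 ratio of CPM of each member (points, with exact 95% intervals) in the 8 comparisons, over the spread of all tested genes (light grey, 5th to 95th percentile, dark grey, 25th to 75th, line, median), with dotted lines at 2-fold. Dpp4, Pi16, Cd55 and Cd34 lie below the light band in the 4 ratios to SC3 apart from Dpp4 in SC9, where it lies at -1.46.

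Shares of cells were compared after thinning every cell of 2000 UMIs or more to that number (1438 to 11517 cells per library), since detection rises with depth. Too shallow for this were 744 of 4632 retained cells in SC3, so the d0 shares rest on its deeper cells. In the injured libraries fewer were left out, with 225 of 5589 in SC4, 83 of 6201 in SC5, 30 of 1468 in SC9 and 424 of 11941 in SC10. Ly6a was found in 57.9% of cells in SC3, 47.9% in SC4, 64.4% in SC5, 33.2% in SC9 and 35.1% in SC10. Cells with Ly6a were thus more frequent in SC5 than at d0 (intervals 63.2 to 65.6% and 56.4 to 59.5%), although its CPM was lower. Cells with at least 2 mural markers made up 14.2% of the thinned cells in SC3 and 0.92% in SC5. Of those mural cells, 12.9% held Ly6a in SC3 and 26.8% in SC5. What part these cells have in the difference was not tested. Among positive cells, the mean was 3.36 UMIs in SC3, 2.16 in SC4, 2.65 in SC5, 3.84 in SC9 and 1.92 in SC10. In SC9 few cells held many Ly6a UMIs, and in SC5 many cells held fewer.
Without the drawing to equal depth, Ly6a was found in 65.5% of cells in SC3 and 72.0 to 93.2% in the injured libraries.

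Pi16 was found in 42.3% of cells in SC3, 6.69% in SC4, 4.82% in SC5, 10.9% in SC9 and 1.36% in SC10, and the mean among positive cells was 5.11 UMIs at d0 and 1.96 to 2.98 after injury. Both the number of cells and the UMIs per cell were lower after injury. Cd34 fell from 56.0% of cells in SC3 to 9.12% in SC4, 10.7% in SC5, 15.02% in SC9 and 8.01% in SC10, with 2.43 UMIs per positive cell at d0 and 1.10 to 1.56 after injury.
Cd55 was in 16.9% of cells in SC3, 1.36% in SC4, 1.45% in SC5, 5.63% in SC9 and 0.82% in SC10. Dpp4 was sparse throughout, in 5.38%, 0.15%, 0.29%, 2.43% and 0.07% in the same order, with at most 1.11 UMIs in a positive cell on average.
Thy1 was found in 30.5% of cells in SC3, 24.4% in SC4, 31.9% in SC5, 13.8% in SC9 and 24.3% in SC10. The intervals of SC3 and SC5 overlap (29.0 to 32.0% and 30.8 to 33.1%), so a difference between them in the share with Thy1 was not resolved at this depth. Ly6c1 was in 44.0% of cells in SC3, 16.2% in SC4, 25.5% in SC5, 17.9% in SC9 and 6.81% in SC10.

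Free RNA was gauged from cells with at least 2 mural markers, which should lack Pi16, Dpp4 and Cd34, at the same drawn depth. In SC3 these 552 cells held Pi16 in 11.8%, Cd34 in 10.5% and Dpp4 in 0.54%, each well below all cells of the library. In the injured libraries there were 49 to 170 such cells, and the intervals are wide. In SC4 the 97 such cells held Pi16 in 2.06% and Cd34 in 3.09% (0.64 to 8.77%, against 8.36 to 9.92% of all cells), and in SC10 the 170 such cells held them in 0.59% and 5.88%. Dpp4 was found in 0 of 170 there, with an upper limit of 2.15%. That is too few cells to decide whether its 0.07% of all cells in SC10 lay above background. The same holds for Dpp4 in SC4 (0 of 97, upper limit 3.73%) and SC5 (0 of 56, upper limit 6.38%). The share of cells with Cd34 in SC10 (7.52 to 8.52%) lay within the interval of its mural cells (2.86 to 10.6%). In SC9 the interval of all cells (13.2 to 17.0%) overlapped that of the mural cells (1.28 to 16.9%). The shares with Pi16 and with Cd55 in the 4 injured libraries, with Dpp4 and Ly6a in SC9 (Ly6a 30.8 to 35.7%, against 10.2 to 34.3%), and with Ly6c1 in SC9 and SC10 also overlapped those of their few mural cells. With so few mural cells, the comparison could not decide whether these shares and that of Cd34 in SC4 lay above background at this depth. In SC9 the 49 cells with 2 mural markers held 2.67% of Cd34 and 2.56% of Ly6a UMIs. The 38 cells of its pericyte (mural)-like clusters (2.59% of cells) held 0% of Cd34, Dpp4 and Cd55, 0.02% of Pi16 and 0.08% of Ly6a. In SC5, 54 such cells (0.87%) held 0.07% of Pi16, 0.21% of Cd34 and 0% of Dpp4. SC4 and SC10 had no cluster of that name. Levels did differ between clusters of each library, as given below.

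Cells that carried several members were most frequent at d0. At least 4 of the 7 were found in 33.3% of cells in SC3, 2.70% in SC4, 2.65% in SC5, 8.21% in SC9 and 0.66% in SC10. All 7 were found in 48 of 3888 cells at d0, in 2 of 1438 in SC9 and in 0 cells of SC4, SC5 and SC10. SC9 combined the largest share of cells with no member (54.2%) with the largest share of cells with 4 or more among the injured libraries. The share with no member was 43.4% in SC10, 33.6% in SC4, 20.4% in SC3 and 19.6% in SC5.

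**Figure D3:**
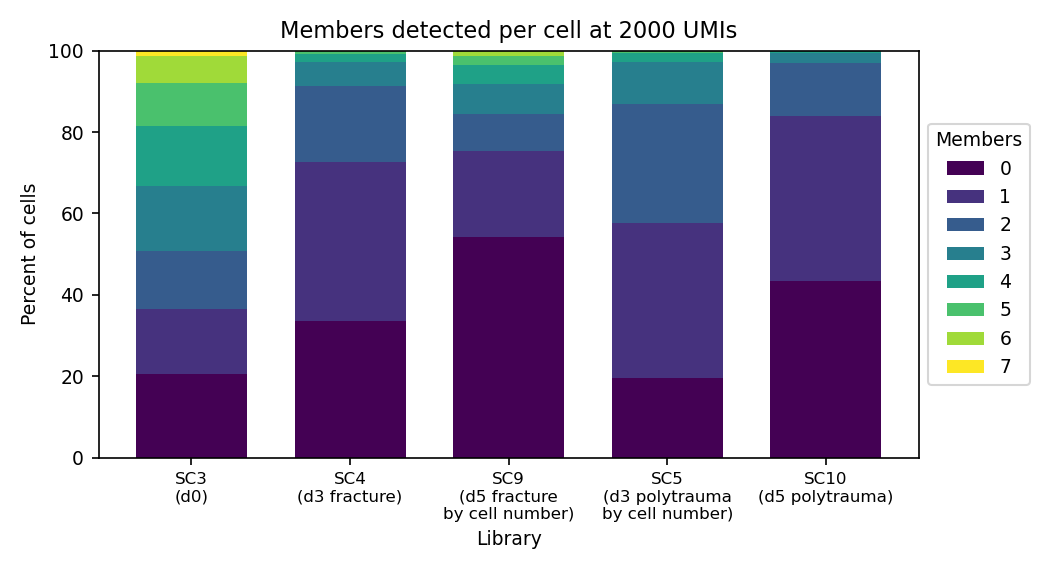
Percent of cells (vertical axis) with 0 to 7 members detected at 2000 UMIs per cell, stacked for each library. In SC3 33.3% of cells carried 4 or more members, in SC9 8.21%, and in SC4, SC5 and SC10 0.66 to 2.70%.

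Ly6a and Cd34, often used together to define FAP/MP, were found in the same cell in 43.2% of cells at d0, 5.80% in SC4, 7.98% in SC5, 12.0% in SC9 and 3.78% in SC10. Cells with Ly6a but no Cd34 UMI took the opposite course in SC4 and SC5, with 14.8% in SC3, 42.2% in SC4, 56.5% in SC5, 21.2% in SC9 and 31.3% in SC10. No Cd34 UMI among 2000 does not make a cell Cd34-negative, since without thinning Cd34 was found in 37.1 to 48.1% of the cells of the injured libraries and in 65.4% at d0. Dpp4 and Pi16 were found together in 155 cells in SC3, 3 in SC4, 3 in SC5, 24 in SC9 and 0 in SC10.

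Within the d0 library each member was found more often in cells with any other member than in cells without it. Ly6c1 was in 67.4% of cells with Ly6a and in 11.8% of cells without it (odds ratio 15.4), the strongest pairing there. Pi16 was in 77.5% of cells with Cd55 and in 35.1% of the others. The ties of Thy1 had odds ratios of 2.69 to 3.52, and it was in 40.7% of cells with Ly6a against 16.3% of those without. After injury Thy1 was in 25.4% of cells with Ly6a and 23.5% of those without in SC4, 32.2% and 31.4% in SC5, 20.3% and 10.5% in SC9, and 23.0% and 25.1% in SC10, with odds ratios of 1.11, 1.04, 2.17 and 0.89. The tie seen at d0 was thus weaker in SC9 (odds ratio 2.17 against 3.52). In SC4, SC5 and SC10 the intervals of the shares with and without Ly6a overlapped. In SC4 Thy1 was still more frequent in cells with Ly6c1 (29.5%, against 23.5% without) and with Cd34 (31.3% against 23.8%). For Pi16, Dpp4 and Cd55 the intervals overlapped there. In SC5 Thy1 was in 19.1% of cells with Cd55 and 32.1% of those without. Cells of a library share depth, free RNA and source mice, so these shares are a description.

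Cells were clustered in each library without the 7 members among the variable genes, and clusters are numbered by size. At d0, cluster 1 (750 of 4632 cells, FAP/MP-like, led by Stmn4, Il18, Fam167a, Pla1a and Cd55) held 61.8% of all Pi16 UMIs, 63.3% of Dpp4 and 62.7% of Cd55. It also held 40.7% of Ly6a, 39.6% of Cd34 and 47.7% of Thy1. Cluster 9 (218 cells, unnamed, led by Col6a5, Mrgprg, Car4, Duox2 and Smpd3) had Pi16 at 4248 CPM, next to 3991 in cluster 1, and Dpp4 at 79.8 against 118.
Thy1 was at 731 CPM in cluster 1 and 205 in cluster 9. Cluster 9 was not found apart at a resolution of 0.3, with the members among the variable genes or with shared barcodes left out. At a resolution of 1 its match (422 cells) had Thy1 at 397 CPM, against 908 in a cluster of 358 cells led by Il18 and Stmn4. The difference in Thy1 thus kept its direction where cluster 9 had a match, and its size rests on the clustering used. In the other FAP/MP-like clusters of d0, Ly6a ranged from 427 to 1427 CPM and Pi16 from 154 to 819.

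Outside the FAP/MP-like clusters of d0, single members stood near or above the level of the library where others were low. The pericyte (mural)-like cluster 2 (Tagln, Map3k7cl, Myh11, Pln, Sorbs2) was low for each, with Ly6a at 112 CPM and Cd34 at 62.7. The tenocyte-like cluster 7 (Wif1, Col11a2, Fmod, Angptl7, Egfl6) had Dpp4 at 42.8 CPM, against 33.3 in the library, while Ly6a was at 151 and Pi16 at 125. At a resolution of 1 the cluster with these leading genes had a Dpp4 interval of 31.9 to 56.3 CPM, which includes the library's level. Cluster 10 (137 cells, led by Stra6, Spp1, Cldn1, Cp and 6030408B16Rik) had Cd34 at 770 CPM with Ly6a at 82.6 and Ly6c1 at 33.6. It carried Schwann or perineurial markers, but at a clustering resolution of 1 an unnamed cluster of 99 cells led by Spp1 and Stra6 held 281 of its 298 Cd34 UMIs, and the Schwann or perineurial-like cluster of 38 cells had Cd34 at 175 CPM.

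In SC9 the adventitial genes were held by a small cluster. Cluster 7 (132 of 1468 cells, FAP/MP-like, led by Dpp4, Efhd1, 1700019D03Rik, Pi16 and Pcdh20) held 85.7% of Dpp4, 68.8% of Pi16, 59.5% of Cd55, 53.9% of Ly6c1 and 51.2% of Cd34 UMIs of the library. Its levels were 2810 CPM for Ly6a, 1205 for Ly6c1, 674 for Cd34, 137 for Dpp4, 1082 for Pi16 and 248 for Cd55. Ly6a and Dpp4 were thus above their levels in cluster 1 of d0, and the other 5 members were below them, Thy1 among them at 117. At a resolution of 1, a d0 cluster of 358 cells led by Il18 and Stmn4 had Dpp4 at 139 CPM (122 to 158) and Ly6a at 2664. The difference in Dpp4 thus rests on the clustering used. Cluster 5 of SC9 (158 cells, FAP/MP-like, led by Cxcl14, Ifit1, Ifit3, Ifit3b and Gdf10) had Ly6a at 2120 CPM, but Dpp4 at 3.43.

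In the other injured libraries Pi16 was again highest in a FAP/MP-like cluster, at lower levels, and the other genes were spread more widely. In every library the name FAP/MP-like rests on Prrx1, Cxcl12, Pdgfra, Dpt and Clec3b. Clec3b is also the gene most like Pi16 over clusters, as given below, so the name is not independent of the level of Pi16. Cluster 3 of SC4 (1055 cells, FAP/MP-like, led by Saa3, Clec3b, Pi16, C3 and Serpina3n) held 76.1% of Pi16 at 325 CPM, 50.4% of Cd55 and 40.8% of Dpp4, with Dpp4 at 2.24 CPM. Cluster 3 of SC5 (861 cells, FAP/MP-like, led by Ccl8, Clec3b, C4b, Car4 and Ace) had Ly6a at 1580 CPM, Pi16 at 157 and Dpp4 at 6.68, and held 44.2% of Pi16 and 25.9% of Cd55. Cluster 5 of SC10 (1218 cells, FAP/MP-like, led by C3, Lbp, Serpina3n, C4b and Chl1) held 81.3% of Pi16 at 104 CPM.
Ly6a in these 3 clusters stood at 863, 1580 and 662 CPM, whereas Dpp4 never exceeded 6.68 CPM, so Ly6a lay within the range of the FAP/MP-like clusters of d0 and Dpp4 was far below cluster 1 of d0.

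**Figure D4:**
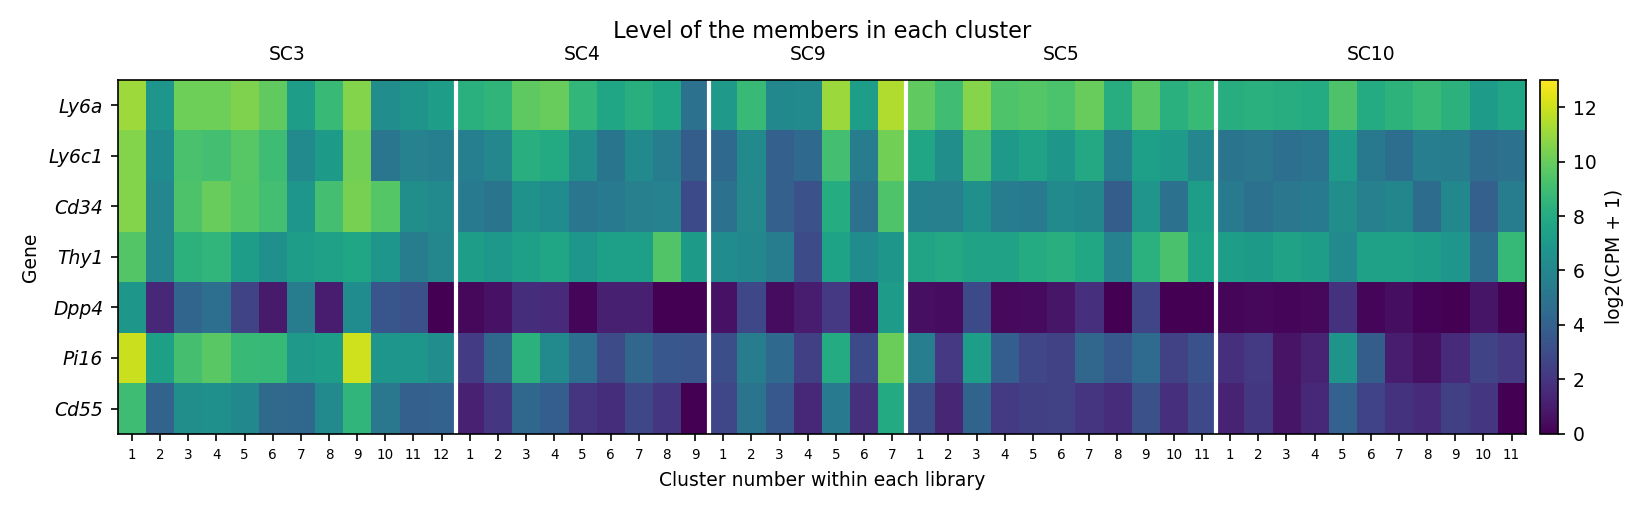
Level of each member (rows) as log2(CPM + 1) in the clusters of at least 50 cells of each library (columns, numbered within the library and ordered by size). Cluster 1 and cluster 9 of SC3 and cluster 7 of SC9 are high for the members other than Thy1, and Thy1 is high in cluster 1 of SC3 and in the clusters led by Rgs5 (SC4 cluster 8, SC5 cluster 10, SC10 cluster 11).

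Thy1 was highest after injury in clusters led by Rgs5, a gene of pericytes. It stood at 716 CPM in cluster 8 of SC4 (73 cells), 624 in cluster 10 of SC5 (54 cells), 991 in cluster 9 of SC9 (19 cells) and 418 in cluster 11 of SC10 (107 cells). At d0, a cluster of 232 cells led by Rgs5, found at a resolution of 1, had Thy1 at 82.7 CPM. The pericyte (mural)-like cluster of d0 had 64.6 CPM. It was led by Tagln and Myh11, genes of smooth muscle, so cells with at least 2 of Rgs5, Kcnj8, Abcc9 and Notch3 were also counted, a choice made after these values were seen. Of such cells, 33.8% had Thy1 in SC3 (24 of 71, 23.0 to 46.0%), 70.0% in SC4 (35 of 50, 55.4 to 82.1%), 76.2% in SC5 (16 of 21), 64.3% in SC9 (18 of 28) and 70.0% in SC10 (42 of 60, 56.8 to 81.2%).
At d0 this share overlapped that of the other cells (30.4%), and in each injured library it was above it (12.8 to 31.8%). With cells that had at least 2 of Cspg4, Des and Mylk the shares were 13.7% in SC3 and 40.7 to 45.0% in the injured libraries. Thy1 was lowest in cluster 4 of SC9 (176 cells, led by Hapln1 and Col2a1, genes of cartilage), at 6.99 CPM.

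Over the 50 clusters of at least 50 cells, the levels of Pi16 and Cd55 ran in parallel (Pearson's r = 0.92 on log2(CPM + 1)), as did Ly6a and Ly6c1 (0.89) and Cd34 and Cd55 (0.88). Thy1 had an r of 0.12 to 0.48 with the other 6, and of 0.69 to 0.85 over the 12 such clusters of SC3 alone. Clusters of 1 library share its depth and free RNA, so the values carry no p.
Among 9552 genes, those most like Pi16 were Clec3b (0.93), Cd55 (0.92) and Tnxb (0.89), those most like Cd55 Clec3b (0.94), Scara5 (0.93) and Lrrn4cl (0.92), and those most like Dpp4 1700019D03Rik (0.85), Tek (0.85) and Cd55 (0.85). Cd34 was nearest to Ntn1, Maob and Add3 (0.89, 0.89 and 0.88), Ly6a to Ly6c1, Mgst1 and Ces2g (0.89, 0.78 and 0.78), and Ly6c1 to Ly6a, Cadm3 and Tmeff2 (0.89, 0.88 and 0.86). Thy1 was nearest to Gm14005, S100a6 and Ifitm3 (0.80, 0.74 and 0.71). Clec3b, which encodes tetranectin, and Scara5, a ferritin receptor, belong to the list of adventitial genes below.

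A list of 21 other adventitial fibroblast genes, 20 of them tested, was mostly lower after injury as well. At least 2-fold lower than in SC3 were 17 in SC4, 15 in SC5, 14 in SC9 and 16 in SC10, and the medians of their log2 ratios were -2.09, -1.94, -1.86 and -3.03. Igfbp6, which binds insulin-like growth factors, was at 3318 CPM in SC3 and at 88.2 to 279 in the injured libraries. Clec3b was at 1596 CPM in SC3, 23.9 in SC4, 22.9 in SC5, 294 in SC9 and 9.95 in SC10, the same order of libraries as for Pi16, with SC4 and SC5 close to each other. Mfap5 (1288 CPM at d0) and Tppp3 (935 CPM) were at 302 to 676 and 29.9 to 71.0 after injury. Plac8 alone rose past 2-fold, from 8.60 CPM to 76.2 to 121, and was named after its values were seen.
Of 10 interstitial FAP genes, 7 were past 2-fold lower in SC4, 7 in SC5, 4 in SC9 and 7 in SC10, and 1, 2, 1 and 1 were past 2-fold higher. Those higher, named after their values were seen, were Rbp4, a retinol carrier, at 29.2 CPM in SC3 and 64.6 to 110 after injury (log2 ratios of 1.14 to 1.90), and in SC5 also Penk, an opioid precursor (1.51). Smoc2, an extracellular matrix protein, was at 828 CPM in SC3 and 136 to 279 after injury, Col15a1 at 326 and 6.55 to 24.4, and Lpl, lipoprotein lipase, at 371 and 24.7 to 86.1. Cxcl12, a chemokine, stayed within 2-fold of its d0 level of 371 CPM in each library (288 to 535). Both lists thus held genes past 2-fold lower, at shares above those of all tested genes given earlier.

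Markers of other cell types moved between libraries as well, and their part in the results was not tested beyond the values given here. The summed level of 7 mural markers was 734 CPM in SC3, 72.3 in SC4, 64.6 in SC5, 236 in SC9 and 103 in SC10. The 5 chondrocyte markers stood at 65.1, 72.7, 19.9, 3352 and 353 CPM, and the 5 markers of dividing cells at 7.63, 393, 339, 331 and 529, and each of these markers had UMIs in every library. The 5 tenocyte markers summed to 1937, 161, 63.6, 526 and 210 CPM and the 3 erythroid markers to 282, 36.9, 31.2, 2.53 and 54.3, both highest at d0 as the members were. Leaving the pericyte (mural)-like cluster out of SC3 raised each member there (Pi16 to 1379 CPM and Ly6a to 1175), and leaving the Col2a1 cluster out of SC9 raised Dpp4 to 14.3 and Thy1 to 92.8, and in the second case 6 members were still past 2-fold lower than in SC3. The 8 hematopoietic markers summed to 17.7 to 112 CPM and the 7 endothelial markers to 7.56 to 15.2, with 1 hematopoietic marker at 0 in SC3 and 1 endothelial marker at 0 in SC9.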

How the data were processed

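Droplet libraries of GFP+ cells (Chromium 3' kit v.2 for all per the labels, although SC9 and SC10 held almost no barcodes of the other libraries, and 98-base reads) were aligned to mm10 by the authors with Cell Ranger (3.1.0 in the matrix headers, another release in the study's methods). The deposited values are raw counts of UMIs per gene and barcode, with no normalization by the authors. Seurat 3.1.2 is named in the submitters' processing notes and was not used here.

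The 5 libraries, 1 per condition, were analysed with Python (versions of numpy, scipy, pandas and scanpy are 2.4.6, 1.17.1, 2.3.3 and 1.11.5). UMIs of retained cells were summed and scaled to 1000000 per library (CPM), with exact Poisson 95% intervals, exact conditional intervals for ratios and Clopper-Pearson intervals for shares. Retained totals were 17437190 to 202233564 UMIs. A ratio was called past 2-fold, and no p-value was computed. UMIs were drawn without replacement (2000 per cell). Clusters used 2000 variable genes without the members, 20 principal components, 15 neighbours and Leiden resolution 0.5, and took a name with at least 3 fixed markers in at least 10% of cells. Doublets were kept in the reported values and left out as an alternative. Sequences came from RefSeq, and 30934 gene identifiers (99.6%) were found in GENCODE M21. The intervals and calls were tested on simulated library totals drawn as Poisson counts. Such counts leave out the spread between cells and between mice, so that test cannot show how the intervals hold on these data.

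The members and lists were chosen with earlier results of these data known. Named besides the members were the 4 genes of each list with the highest d0 level, the 3 genes most like each member and the 5 leading genes of each cluster. Alternatives covered scaling, cell filters, shared barcodes, doublets, depth, fold and clustering, and the conditions of SC5 and SC9 as deposited, which change names and no value.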

Additional observations from a re-analysis of the deposited data

Results flagged for a closer look

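Between d3 and d5 the level of 6 of the 7 members moved in opposite directions after fracture (SC9 against SC4) and after polytrauma (SC10 against SC5), with 1 library per condition, so the difference was not tested. Of all 9388 tested genes, 7.83% were higher in SC9 than in SC4 and lower in SC10 than in SC5, as these 6 were, and the median log2 ratios of all tested genes were 0.53 and 0.46. On the log2 scale, Dpp4 gave 4.10 after fracture and -1.18 after polytrauma, and Cd55 gave 2.65 and -0.65. Pi16 gave 1.11 and -1.31, and Cd34 gave 1.08 and -0.36. Ly6c1 gave 0.82 and -2.05, and Ly6a gave 0.35 and -1.18. Thy1 was lower at d5 in both. The value of Ly6a after fracture was -0.18 with median-of-ratios scaling, and its value of 0.35 lay at percentile 43.2 of all tested genes. Without cluster 7 of SC9 (1336 cells left), which was picked for its members' levels, Ly6a, Ly6c1 and Pi16 were below SC4. They stood at 359, 84.7 and 40.3 CPM, against 427, 96.2 and 55.3 in SC4. Cd34, Dpp4 and Cd55 stayed above SC4 (52.7, 1.88 and 13.9 CPM, against 47.3, 0.71 and 5.04). These readings take SC9 as d5 post-fracture and SC5 as d3 post-polytrauma.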

How the results depend on the processing

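No paired analysis was possible because each condition has 1 library. Of 192 counts of members past 2-fold recomputed under alternatives, 179 stayed within 1.5 times the reported one, and the cause of the others was not tested. The 192 include the alternative without the filter on low levels. It could not change a count, because all 7 members passed that filter. Also among the 192 are the counts of members higher than d0, which were 0 with every member lower and so had little room to move. All 13 counts that moved lay in ratios between injured libraries. For SC5 against SC4, 1 member was lower, in place of 0, with shared barcodes left out, with every cell weighted equally, with 2000 UMIs per cell and at 1.5-fold, and 2 were higher at 1.5-fold. For SC9 against SC4, 1 was lower, in place of 0, with median-of-ratios scaling, with totals without mitochondrial and ribosomal protein genes, with cells carrying markers of other types left out and at 1.5-fold, and 2 were higher, in place of 4, with the first 2 of these and with every cell weighted equally. For SC10 against SC9, 1 was higher, in place of 0, at 1.5-fold. Median-of-ratios scaling moved levels relative to SC3 by 0.28 (SC4 and SC5), -0.25 (SC9) and -0.20 (SC10) on the log2 scale.

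Of 3 alternatives chosen after seeing the data, leaving cluster 7 out of SC9 gave 1 member lower and 2 higher than in SC4. Pi16 was reversed at -0.46 (log2), and Ly6a and Ly6c1, not past 2-fold before, also came to lie below SC4. These changes follow in part from the choice, since that cluster was picked for its members' levels. Cluster 3 of SC4, rich in Pi16, stayed in. Of 20 counts under the 3 alternatives 18 stayed. No ratio past 2-fold changed its sign with another scaling, cell filter, depth or weighting of cells. With 1 library per condition, differences between mice cannot be told apart from differences between conditions.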

Other observations

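Of 20 genes of the Ly6 family and related to it, 7 passed the filter on low levels. Ly6e, a widely expressed member, was at 208 CPM in SC3, 242 in SC4, 410 in SC5, 217 in SC9 and 293 in SC10, so it did not fall where Ly6a and Ly6c1 did. Plaur, the urokinase receptor, was at 34.2 CPM in SC3, 80.6 in SC4, 78.5 in SC5, 51.1 in SC9 and 32.5 in SC10.

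Of 15 other surface genes used for mesenchymal progenitors, 12 passed the filter. At least 2-fold lower than in SC3 were 6 in SC4, 7 in SC5, 4 in SC9 and 5 in SC10, and at least 2-fold higher were 1, 1, 3 and 2. Of all tested genes, 25.1%, 24.9%, 10.6% and 14.6% were lower in these libraries, and 12.5%, 11.7%, 20.7% and 21.6% higher. The tetraspanin Cd81 was at 1193 CPM in SC3 and 378 to 543 in the injured libraries, and Cd9 at 1046 and 194 to 367. Itgb1, which encodes CD29, was at 207 CPM in SC3, 158 in SC4, 147 in SC5, 429 in SC9 and 470 in SC10, higher in SC9 and SC10 than in the other 3 libraries. SC9 and SC10 are read as the d5 libraries and also form a barcode set of their own, so day and set cannot be told apart. Cd44, the hyaluronan receptor, was at 182 CPM in SC3 and 185 to 305 in the injured libraries.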
